A study of Mus musculus with 12 samples.

Results

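The ATF4 stress response and the supply of amino acids were described through 37 named mouse genes in C8-D1A, an established line of mouse astrocytes. The genes were taken by symbol from a list, and all 37 were found among the 21959 genes of the table. They comprised 14 regulators and stress effectors, 9 enzymes of serine, proline, asparagine and cysteine synthesis and of the one-carbon pathway, 8 amino acid transporters and 6 cytosolic tRNA synthetases. The series holds 12 libraries, 3 for each of 4 conditions. Control cells were kept at 37 °C under 5% CO2, and the other groups were cells under 15% CO2, cells given 20 mM lactic acid, and cells in a medium whose NaHCO3 was lowered to 0.2 g/L. All cells were taken after 24 h. The CO2 level of the lactic acid and low-NaHCO3 cultures is not given in the labels, nor is the pH that any culture reached. Separate cultures are not stated for the libraries of a condition, so p-values measure only the spread between these libraries, which may be technical.

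ATF4 is the transcription factor at the centre of the integrated stress response. Kinases that sense amino acid shortage, misfolded protein, heme shortage or viral RNA phosphorylate the translation factor eIF2, which slows protein synthesis as a whole while upstream reading frames in the Atf4 mRNA let more ATF4 protein be made. ATF4, paired with a C/EBP protein, then binds the C/EBP-ATF response element in genes that make, import and charge amino acids, and in genes that feed back on the pathway. Because ATF4 is set largely by translation, the level of its mRNA is not the level of the protein. In the brain astrocytes are the main makers of serine, through Phgdh, Psat1 and Psph, and supply it to neurons.

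Values are TPM (transcripts per 1000000), in which every library sums to the same total, so each is a share of its library's RNA, and the number of reads behind it is unknown. In bulk RNA fewer cells of a type and less RNA per cell cannot be told apart. Control 1 stood apart. It was the lowest of the 3 controls for 33 of the 37 genes and the lowest of all 12 libraries for 22 of them, at a median of 0.634 times the mean of the other controls. Markers of other brain cell types were high in it. It was the highest library for 9 of 10 neuronal, 8 of 8 oligodendrocyte, 8 of 8 microglial, 6 of 6 endothelial and blood and 8 of 10 astrocyte markers. Its neuronal markers summed to 2648 TPM against 349.9 to 537.6 TPM in the other libraries, where Nefm carried most of that sum. Its oligodendrocyte markers summed to 1119 TPM against 35.2 to 77.2 TPM, and its endothelial and blood markers to 429 TPM against 17.8 to 28.7 TPM. Its microglial markers summed to 188 TPM against 3.86 to 11.0 TPM, and the defining C1qa, C1qb, C1qc and P2ry12 were listed at 0 in all other libraries. The part of this material in the low values of control 1 was not tested, and the comparisons of the genes with control are given with all 12 libraries and again with control 1 left out. In the other 11 libraries the defining markers of mature astrocytes Slc1a2, Slc1a3, Aqp4, Gfap, Aldoc, Gja1 and Aldh1l1 were all at 1.19 TPM or less, so most defining markers of the labelled cell type were at or near 0. In those libraries the astrocyte label rests on Vim, S100b and Sox9, which were present in each of them. Mitochondrially encoded mRNAs took 104049 to 108557 TPM in low-NaHCO3 medium and 156010 to 278249 TPM elsewhere, with the highest values in lactic acid 3 and 15% CO2 3.

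The C/EBP-ATF response element is the sequence that ATF4 binds, so its core was looked for as TGATGNAA on both strands (TTNCATCA on the other) in RefSeq promoter windows of 300 bases, 250 before and 50 after a gene's start. The windows are on GRCm38.p6, an older build than the GRCm39 of the expression files, and were joined by gene symbol. There were windows for 30 of the 37 genes, and 7 had none (Cth, Eif4ebp1, Nars, Slc1a5, Slc7a3, Slc7a5 and Wars). The core was in the windows of 9 of the 30 genes, or 9 of 36 windows (25%), against 3.97% of all 32851 windows. The form TGATGCAA was in 6 genes, or 6 of the 36 windows (16.7%), against 0.895% of all windows. The match is a description of these letters and not of binding. The 37 genes were listed for their place in the ATF4 response, so their higher share is not separate evidence. Elements outside the windows were not looked for. The 6 stretches with TGATGCAA, or TTGCATCA on the other strand, are shown with the element in capitals, since they include genes that rose and genes that fell in the same medium, as given further on. The one of Vldlr is in the window of its other start. In these windows they lay at Chac1 (chr2:119351029-119351076, + strand, motif beginning 193 bases before the start), Nupr1 (chr7:126625553-126625600, - strand, motif beginning 110 bases before the start), Vldlr (chr19:27216800-27216847, + strand, motif beginning 200 bases before the start), Pycr1 (chr11:120643824-120643871, - strand, motif beginning 103 bases before the start), Slc1a4 (chr11:20332710-20332737, - strand, motif beginning 4 bases before the start) and Aars (chr8:111033710-111033757, + strand, motif beginning 112 bases before the start).
Chac1: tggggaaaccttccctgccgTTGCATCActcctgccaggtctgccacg
Nupr1: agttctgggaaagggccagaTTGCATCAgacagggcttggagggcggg
Vldlr: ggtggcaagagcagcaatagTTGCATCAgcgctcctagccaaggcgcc
Pycr1: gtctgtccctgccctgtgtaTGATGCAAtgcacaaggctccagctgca
Slc1a4: cctccagcgtgcctcctgcgTTGCATCA
Aars: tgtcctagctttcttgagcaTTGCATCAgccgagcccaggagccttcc

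The genes spanned a wide range of levels. Averaged over the 12 libraries, the asparaginyl-tRNA synthetase Nars was highest at 527 TPM, followed by the serine synthesis enzymes Phgdh at 502 TPM and Psat1 at 489 TPM, and by Atf4 at 460 TPM. The lowest were Stc2 at 15.6 TPM and Slc7a3 at 1.94 TPM. All 37 passed the filter of at least 1 TPM in at least 3 libraries, which left 12326 genes in the test, or 12226 with control 1 left out. Differences were tested with limma on log2(TPM + 1), with Benjamini-Hochberg adjustment over all genes tested in a comparison and a threshold of 0.05. A pseudocount of 1 makes the log2 difference of a low gene smaller than that of its TPM. Log2 differences are given with their standard error and mean TPM with the SD. Rose and fell are used of genes past that threshold.

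**Figure D1:**
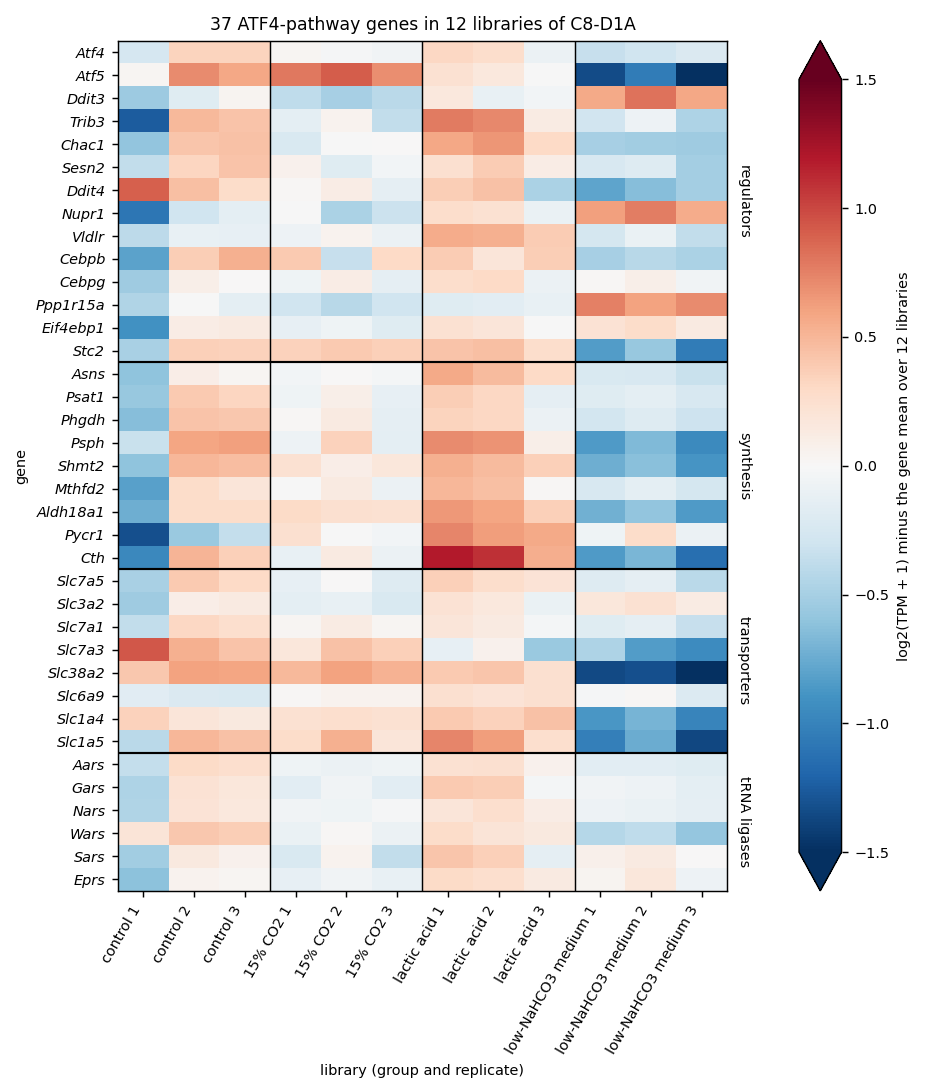
Heat map of log2(TPM + 1) minus the mean of each gene over the 12 libraries, with the 37 genes in rows by role and the libraries in columns by group (colours stop at 1.5 in either direction). The low-NaHCO3 columns hold high Ddit3, Nupr1 and Ppp1r15a beside low Slc38a2, Atf5 and Slc1a5, and the first control column is low in most rows.

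In low-NaHCO3 medium the 14 regulators and stress effectors moved both ways, and with 12 libraries more of them were lower than higher. Lower calls also outnumbered higher ones among all genes tested, at 35% against 19.8%, so this is not particular to the regulators. Of the supply genes, 4 of 9 synthesis enzymes and 4 of 8 transporters were lower, and the synthesis enzyme Pycr1 was higher. Among the regulators and effectors Ddit3, Nupr1 and Ppp1r15a rose, whereas Atf4, Atf5, Chac1, Ddit4 and Stc2 fell. The serine and cysteine enzymes Psph, Shmt2 and Cth, and the transporters Slc38a2, Slc1a5 and Slc1a4 also fell. With all 12 libraries 18 of the 37 genes passed the test, 4 higher and 14 lower. That is 48.6% of them, against 54.8% of all 12326 genes tested, of which 19.8% were higher and 35% lower, so the share was no greater than among all genes. With control 1 left out 30 passed, 4 higher and 26 lower, which is 81.1% against 63.7% of all 12226 genes tested, with 22.7% higher and 40.9% lower. All 18 were among the 30. The median log2 difference of the 37 genes was −0.28 with 12 libraries and −0.59 without control 1, beside −0.20 and −0.17 for all genes tested. The 3 low-NaHCO3 libraries were all above the 3 controls for 4 genes and all below for 10, where 23.8% and 40.2% of all genes were. Without control 1 these counts were 5 and 26, against 30.5% and 50.9%. Scaling moved the calls. Median-of-ratios scaling brought the median of all genes to −0.014, and of the 37 genes 8 were then higher and 10 lower with 12 libraries. With that scaling and without control 1, 8 were higher and 23 lower. With mitochondrial mRNAs removed and without control 1, 4 were higher and 27 lower. The counts under these changed settings have no share of all genes beside them. Low-NaHCO3 library 3 was the lowest of its group for 32 of the 37 genes.

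Ddit3 (CHOP, ENSMUSG00000025408) encodes the transcription factor through which lasting stress turns toward cell death. It stood at 33.9, 44.3 and 51.5 TPM in controls 1 to 3, 38.1, 35.2 and 37.7 TPM under 15% CO2, 56.1, 46.4 and 48.8 TPM with lactic acid and 74.7, 89.0 and 75.7 TPM in low-NaHCO3 medium. The 3 low-NaHCO3 libraries were above every other library. The difference from control was 0.89 ± 0.14 on the log2 scale (adjusted p = 0.000351), and 0.72 ± 0.11 with control 1 left out (adjusted p = 0.000123). Nupr1 (ENSMUSG00000030717), a small chromatin-associated stress protein whose promoter holds the element shown above, stood at 23.3, 40.9 and 45.6 TPM in controls 1 to 3, 50.1, 35.9 and 40.2 TPM under 15% CO2, 61.0, 59.1 and 47.1 TPM with lactic acid and 78.1, 86.6 and 74.9 TPM in low-NaHCO3 medium. Its low-NaHCO3 libraries were again above all others, with lactic acid 1 and 2 next. The difference from control was 1.16 ± 0.22 on the log2 scale (adjusted p = 0.00114), and 0.87 ± 0.14 with control 1 left out (adjusted p = 0.000286). Ppp1r15a (GADD34, ENSMUSG00000040435) encodes the phosphatase subunit that dephosphorylates eIF2 and ends the response. It stood at 41.1, 56.4 and 51.1 TPM in controls 1 to 3, 45.7, 42.2 and 45.9 TPM under 15% CO2, 49.6, 50.5 and 52.4 TPM with lactic acid and 95.9, 86.3 and 92.9 TPM in low-NaHCO3 medium. The other groups lay close together below the low-NaHCO3 libraries, and the difference from control was 0.89 ± 0.11 on the log2 scale (adjusted p = 5.67e-05), and 0.76 ± 0.0742 with control 1 left out (adjusted p = 6.31e-06). All 3 calls held when each of the 12 libraries was left out in turn.

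Atf4 (ENSMUSG00000042406) mRNA itself was not higher. It stood at 380.4, 573 and 573 TPM in controls 1 to 3, 462, 449 and 436 TPM under 15% CO2, 564, 544 and 427 TPM with lactic acid and 356, 368 and 389 TPM in low-NaHCO3 medium. Controls 2 and 3 were the highest libraries, and control 1 lay inside the range of the low-NaHCO3 libraries, so the groups overlapped. The difference from control was −0.43 ± 0.16 on the log2 scale (adjusted p = 0.0404), and −0.63 ± 0.11 with control 1 left out (adjusted p = 0.000421). The call with 12 libraries was marginal. It was lost when any of 9 of the 12 libraries was left out (all but control 1 and lactic acid 1 and 3), with adjusted p-values from 0.000421 to 0.131 over the 12 omissions, and under median-of-ratios scaling at −0.23 (adjusted p = 0.229). Atf5, a related factor that is likewise set by translation, fell far more. Its values were 65.5, 105 and 96.5 TPM in controls 1 to 3, 112, 122 and 105 TPM under 15% CO2, 75.4, 71.8 and 63.9 TPM with lactic acid and 24.8, 30.5 and 19.0 TPM in low-NaHCO3 medium. Every low-NaHCO3 library was below every other one. The difference from control was −1.80 ± 0.19 on the log2 scale (adjusted p = 2.11e-05), and −2.01 ± 0.15 with control 1 left out (adjusted p = 1.25e-06).

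Other effectors fell or gave no call. Stc2, a secreted glycoprotein induced by stress of the endoplasmic reticulum, stood at 10.1, 19.0 and 18.9 TPM in controls 1 to 3, 18.9, 19.5 and 19.0 TPM under 15% CO2, 20.0, 20.3 and 17.8 TPM with lactic acid and 7.75, 9.52 and 6.55 TPM in low-NaHCO3 medium. It was lowest in low-NaHCO3 medium, with control 1 next, and differed from control by −0.89 ± 0.21 on the log2 scale (adjusted p = 0.00395), and −1.17 ± 0.12 with control 1 left out (adjusted p = 1.00e-05). Quantile normalization ended the 12-library call (adjusted p = 0.313). Chac1, which degrades glutathione and is a common marker of ATF4 activity, stood at 32.9, 67.2 and 68.2 TPM in controls 1 to 3, 42.5, 49.9 and 50.4 TPM under 15% CO2, 75.4, 79.6 and 61.9 TPM with lactic acid and 35.1, 34.5 and 34.2 TPM in low-NaHCO3 medium. Control 1 was below all 3 low-NaHCO3 libraries, whereas controls 2 and 3 were above them. Its difference was −0.61 ± 0.23 on the log2 scale (adjusted p = 0.0419), and −0.95 ± 0.11 with control 1 left out (adjusted p = 1.74e-05). The 12-library call was lost in 10 of 12 omissions (all but control 1 and lactic acid 3; adjusted p 1.74e-05 to 0.144). Trib3, the pseudokinase that binds ATF4 and restrains it, stood at 20.0, 68.9 and 66.5 TPM in controls 1 to 3, 44.0, 50.9 and 37.8 TPM under 15% CO2, 85.0, 81.3 and 53.4 TPM with lactic acid and 40.0, 46.2 and 35.3 TPM in low-NaHCO3 medium. Control 1 was again the lowest library. The test gave −0.17 ± 0.38 on the log2 scale (adjusted p = 0.731), and −0.73 ± 0.19 with control 1 left out (adjusted p = 0.00545). Sesn2, a leucine sensor that restrains mTORC1, stood at 24.4, 39.8 and 42.8 TPM in controls 1 to 3, 33.2, 27.9 and 30.7 TPM under 15% CO2, 37.6, 41.4 and 34.4 TPM with lactic acid and 26.7, 27.5 and 21.9 TPM in low-NaHCO3 medium. Control 1 lay within the range of the low-NaHCO3 libraries. It differed by −0.44 ± 0.18 on the log2 scale (adjusted p = 0.0604), and −0.69 ± 0.11 with control 1 left out (adjusted p = 0.000313). Of the regulators not given by library, Ddit4, a further mTORC1 inhibitor, fell in both fits, from 84.5 ± 19.7 TPM in controls to 36.2 ± 3.57 TPM (SD, n = 3), a difference of −1.18 ± 0.23 (adjusted p = 0.00131). Cebpb, a binding partner of ATF4, passed only with control 1 left out (−0.92 ± 0.18, adjusted p = 0.000986). Cebpg, the other C/EBP partner, Eif4ebp1, a translation repressor, and Vldlr, a lipoprotein receptor, passed in neither fit.

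**Figure D2:**
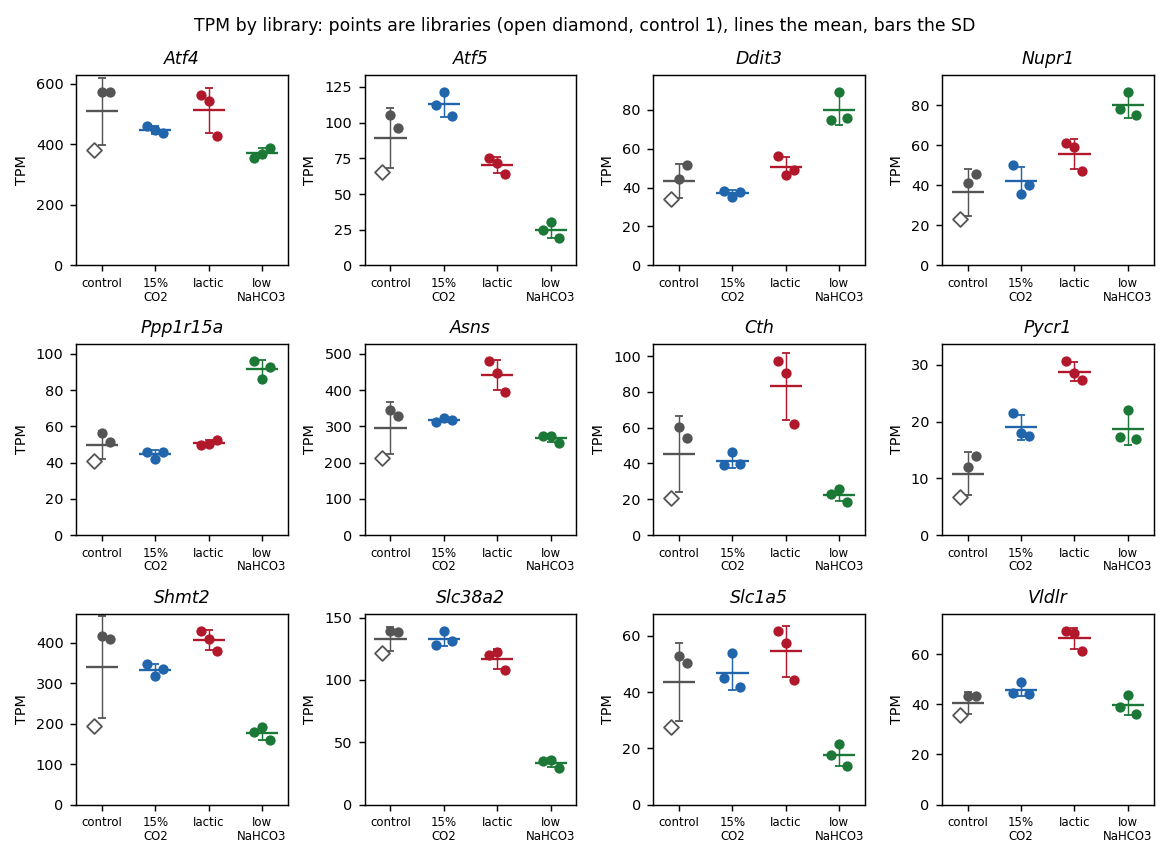
TPM in each library for 12 of the genes, with 1 point per library, the 4 groups along the horizontal axis, control 1 as an open diamond and each vertical axis starting at 0. Ddit3, Nupr1 and Ppp1r15a are highest in low-NaHCO3 medium, Slc38a2, Atf5, Slc1a5 and Cth are low there, and Pycr1 and Vldlr are highest with lactic acid.

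Among the synthesis enzymes 5 of 9 passed with 12 libraries, where 54.8% of all genes tested passed. Without control 1 all 9 passed, of which 8 were lower, where 63.7% of all genes tested passed and 40.9% were lower. Psph, the phosphatase of the last step of serine synthesis, stood at 29.4, 56.7 and 57.6 TPM in controls 1 to 3, 35.2, 47.7 and 33.6 TPM under 15% CO2, 61.5, 60.2 and 39.5 TPM with lactic acid and 20.2, 23.3 and 18.7 TPM in low-NaHCO3 medium. Its low-NaHCO3 libraries were below all others. It differed by −1.11 ± 0.26 on the log2 scale (adjusted p = 0.00388), and −1.42 ± 0.19 with control 1 left out (adjusted p = 6.55e-05). The enzymes of the earlier steps, Phgdh and Psat1, passed only without control 1, at −0.67 ± 0.13 (adjusted p = 0.000698) and −0.54 ± 0.13 (adjusted p = 0.00442). Shmt2, which splits serine to glycine in mitochondria and feeds the folate pathway, went from 340.3 ± 126 TPM in controls to 176 ± 16.1 TPM (SD, n = 3). That was −0.87 ± 0.23 on the log2 scale (adjusted p = 0.0095), and −1.23 ± 0.0880 with control 1 left out (adjusted p = 7.58e-07). A fit of the 2 groups alone did not keep the 12-library call (adjusted p = 0.0566). Mthfd2, the next mitochondrial folate enzyme, passed only without control 1 (−0.44 ± 0.13, adjusted p = 0.0107). Cth, which makes cysteine from cystathionine, stood at 21.0, 60.4 and 54.3 TPM in controls 1 to 3, 39.0, 46.2 and 39.4 TPM under 15% CO2, 97.0, 90.7 and 62.0 TPM with lactic acid and 22.9, 25.8 and 18.6 TPM in low-NaHCO3 medium. Control 1 was within the low-NaHCO3 range and the other controls were above it. It differed by −0.86 ± 0.33 on the log2 scale (adjusted p = 0.0455), and −1.32 ± 0.18 with control 1 left out (adjusted p = 7.33e-05). The 12-library call was lost in 10 of 12 omissions (all but control 1 and lactic acid 3; adjusted p 7.33e-05 to 0.157). Asns, asparagine synthetase, stood at 212, 346 and 329 TPM in controls 1 to 3, 313, 322 and 317 TPM under 15% CO2, 479, 448 and 396 TPM with lactic acid and 274, 272 and 255 TPM in low-NaHCO3 medium. Control 1 was below the low-NaHCO3 libraries and the other controls were above them. The test gave −0.11 ± 0.16 on the log2 scale (adjusted p = 0.562), and −0.34 ± 0.0838 with control 1 left out (adjusted p = 0.00457).

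The 2 enzymes of proline synthesis moved in opposite directions. Aldh18a1, which starts the route from glutamate, went from 182 ± 64.1 TPM in controls to 110.1 ± 9.91 TPM in low-NaHCO3 medium (SD, n = 3). It differed by −0.66 ± 0.22 on the log2 scale (adjusted p = 0.0283), and −0.99 ± 0.0963 with control 1 left out (adjusted p = 6.09e-06). The 12-library call was lost without 4 libraries taken singly (control 2, control 3, low-NaHCO3 medium 1, low-NaHCO3 medium 3; adjusted p 6.09e-06 to 0.1) and with median-of-ratios scaling (adjusted p = 0.0992). Pycr1 (ENSMUSG00000025140), the mitochondrial reductase of the last step, stood at 6.67, 11.9 and 13.9 TPM in controls 1 to 3, 21.6, 17.9 and 17.5 TPM under 15% CO2, 30.6, 28.5 and 27.3 TPM with lactic acid and 17.2, 22.1 and 16.9 TPM in low-NaHCO3 medium. All 9 treated libraries were above all 3 controls. In low-NaHCO3 medium it differed from control by 0.78 ± 0.21 on the log2 scale (adjusted p = 0.00956), and 0.50 ± 0.13 with control 1 left out (adjusted p = 0.00603). A fit of the 2 groups alone did not keep that call (adjusted p = 0.0541), nor did the fit without controls 1 and 2 (adjusted p = 0.07).

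The largest fall of the 37 genes on the log2(TPM + 1) scale, which understates changes of low genes, was in a transporter. Slc38a2 (SNAT2, ENSMUSG00000022462), which takes up small neutral amino acids with sodium and is known to rise when they run short, stood at 121, 139 and 138 TPM in controls 1 to 3, 128, 139 and 131 TPM under 15% CO2, 120.3, 122 and 108 TPM with lactic acid and 35.1, 36.0 and 29.4 TPM in low-NaHCO3 medium. The highest low-NaHCO3 value was 36.0 TPM and the lowest of the other 9 libraries 108 TPM. The difference from control was −1.96 ± 0.0969 on the log2 scale (adjusted p = 2.76e-07), and −2.02 ± 0.0920 with control 1 left out (adjusted p = 5.03e-08). Slc1a5 (ASCT2), an exchanger that carries glutamine, stood at 27.8, 52.7 and 50.3 TPM in controls 1 to 3, 45.0, 53.9 and 41.9 TPM under 15% CO2, 61.8, 57.5 and 44.2 TPM with lactic acid and 17.6, 21.6 and 13.7 TPM in low-NaHCO3 medium. Control 1 was the nearest to the low-NaHCO3 libraries, and the groups did not overlap. It differed by −1.23 ± 0.24 on the log2 scale (adjusted p = 0.00144), and −1.52 ± 0.18 with control 1 left out (adjusted p = 2.67e-05). Slc7a3, a carrier of cationic amino acids, was low throughout, at 4.21, 2.95 and 2.67 TPM in controls 1 to 3, 2.08, 2.72 and 2.51 TPM under 15% CO2, 1.51, 1.87 and 0.853 TPM with lactic acid and 0.983, 0.529 and 0.423 TPM in low-NaHCO3 medium. Control 1 was its highest library. It differed by −1.38 ± 0.22 on the log2 scale (adjusted p = 0.000413), and −1.23 ± 0.20 with control 1 left out (adjusted p = 0.000321). Slc1a4 (ASCT1), a carrier of serine and alanine with a TTGCATCA that spans its start, went from 37.3 ± 2.82 TPM to 17.2 ± 1.93 TPM (SD, n = 3), a difference of −1.08 ± 0.0915 on the log2 scale (adjusted p = 5.68e-06), and −1.02 ± 0.0851 with control 1 left out (adjusted p = 2.19e-06). Slc7a5 and Slc3a2 are the light and heavy chains of the LAT1 exchanger of large neutral amino acids. Slc7a5 stood at 137, 252 and 236 TPM in controls 1 to 3, 175, 192 and 167 TPM under 15% CO2, 246, 231 and 221 TPM with lactic acid and 168, 174 and 144 TPM in low-NaHCO3 medium. Control 1 was below the low-NaHCO3 libraries and the other controls were above them. It passed only without control 1, at −0.59 ± 0.0933 (adjusted p = 0.000208). Slc3a2 stood at 188, 293 and 300.1 TPM in controls 1 to 3, 247, 253 and 233 TPM under 15% CO2, 318, 306 and 254 TPM with lactic acid and 309, 319 and 298 TPM in low-NaHCO3 medium. Its low-NaHCO3 libraries were close to controls 2 and 3, and it passed in neither fit (0.056 ± 0.0929 without control 1, adjusted p = 0.616). Slc7a1, a further cationic carrier, passed only without control 1 (−0.49 ± 0.0851, adjusted p = 0.000404), and the glycine transporter Slc6a9 in neither.

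Among the 6 tRNA synthetases 1 passed with 12 libraries and 4 without control 1, all lower. Of all genes tested 35% were lower with 12 libraries and 40.9% without control 1. Wars, which charges tryptophan, stood at 103, 119 and 117 TPM in controls 1 to 3, 83.8, 91.1 and 84.6 TPM under 15% CO2, 109, 103 and 99.5 TPM with lactic acid and 66.9, 68.9 and 59.8 TPM in low-NaHCO3 medium. Its low-NaHCO3 libraries were below all others, with 15% CO2 next. It differed by −0.78 ± 0.0860 on the log2 scale (adjusted p = 2.97e-05), and −0.85 ± 0.0764 with control 1 left out (adjusted p = 3.60e-06). Aars, which charges alanine, stood at 133, 209 and 203 TPM in controls 1 to 3, 164, 159.9 and 163 TPM under 15% CO2, 200.4, 202 and 178 TPM with lactic acid and 152, 153 and 150.3 TPM in low-NaHCO3 medium. The low-NaHCO3 libraries were all between control 1 and the other controls. It differed by −0.23 ± 0.14 on the log2 scale (adjusted p = 0.194), and −0.44 ± 0.0678 with control 1 left out (adjusted p = 0.000182). Nars and Gars, for asparagine and glycine, passed without control 1 with small differences, Nars at −0.28 ± 0.0696 (adjusted p = 0.00445) and Gars at −0.28 ± 0.12 (adjusted p = 0.0499). Sars and Eprs, for serine and for glutamate and proline, passed in neither fit. By role, the median log2 difference without control 1 was −0.66 for the regulators, −0.67 for the synthesis enzymes, −0.81 for the transporters and −0.28 for the synthetases. With 12 libraries these were −0.30, −0.32, −0.70 and −0.069. The median of all genes tested, given above, was also negative in both fits, and with 12 libraries it was below that of the synthetases.

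**Figure D3:**
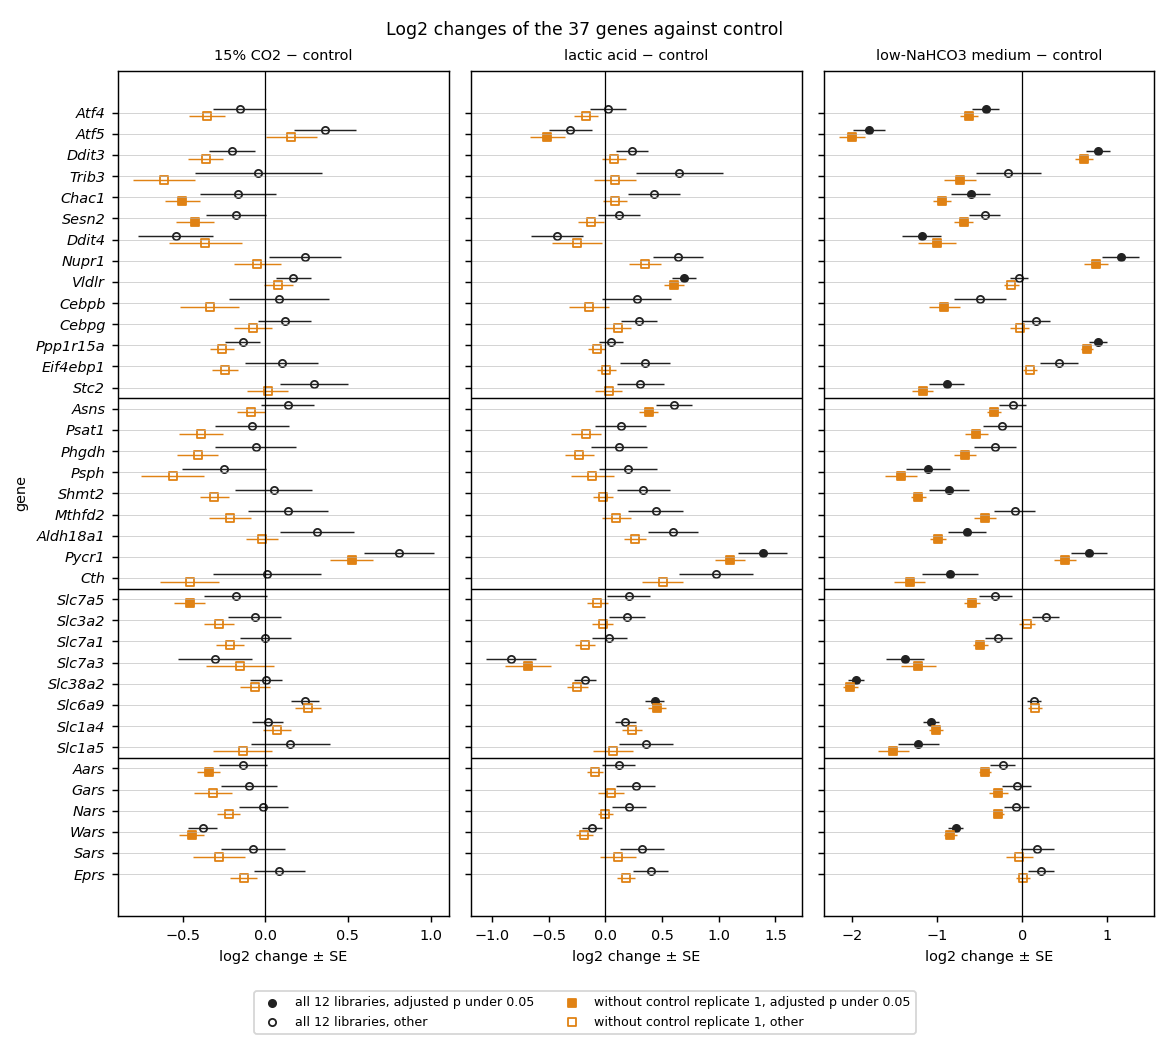
Log2 difference from control for each of the 37 genes, with 1 panel per treatment, points for the fit of 12 libraries and for the fit without control 1, and bars of 1 standard error. Leaving out control 1 moves most points to the left, and Slc38a2, Atf5, Nupr1, Ddit3 and Ppp1r15a in low-NaHCO3 medium lie away from 0 in both fits.

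With lactic acid 3 of the genes were higher. Pycr1, Vldlr and Slc6a9 passed the test with 12 libraries, all higher, which is 8.11% of the 37 genes against 3.99% of all genes tested (2.47% higher and 1.52% lower). Without control 1 there were 6, 4 higher and 2 lower, or 16.2% against 16.1% of all genes tested (9.05% higher and 7.08% lower). Asns joined the higher genes, and Atf5 and Slc7a3 were lower. The median log2 difference of the 37 genes was 0.27 with 12 libraries and 0.0088 without control 1, beside −0.036 and −1.1e-07 for all genes tested, so the higher median of the 12-library fit was not seen without control 1. The 3 lactic acid libraries were above all 3 controls for 9 genes and below for 1, where 15% and 13.4% of all genes were. Without control 1 these counts were 9 and 8, against 28% and 28% of all genes.

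Pycr1, whose values and promoter are given above, averaged 28.8 ± 1.69 TPM with lactic acid against 10.8 ± 3.74 TPM in controls (SD, n = 3). The difference was 1.39 ± 0.21 on the log2 scale (adjusted p = 0.011), and 1.10 ± 0.13 with control 1 left out (adjusted p = 0.000971). Vldlr, the receptor for very low density lipoproteins and an ATF4 target with TTGCATCA in its promoter, stood at 35.6, 43.3 and 43.1 TPM in controls 1 to 3, 44.5, 48.8 and 43.9 TPM under 15% CO2, 69.2, 68.2 and 61.3 TPM with lactic acid and 38.9, 43.7 and 36.1 TPM in low-NaHCO3 medium. The lactic acid libraries were above all 9 others. It differed by 0.69 ± 0.10 on the log2 scale (adjusted p = 0.0106), and 0.60 ± 0.0902 with control 1 left out (adjusted p = 0.00263). Slc6a9 (GLYT1), the glial glycine transporter, stood at 17.5, 16.9 and 16.8 TPM in controls 1 to 3, 20.0, 20.5 and 20.5 TPM under 15% CO2, 23.6, 23.0 and 23.6 TPM with lactic acid and 19.5, 20.0 and 17.02 TPM in low-NaHCO3 medium. It was highest with lactic acid, with 15% CO2 next, and control 1 was close to the other controls here. It differed by 0.43 ± 0.0824 on the log2 scale (adjusted p = 0.0205), and 0.45 ± 0.0795 with control 1 left out (adjusted p = 0.00538). The 12-library call was lost without 5 libraries taken singly (control 2, control 3, lactic acid 1, lactic acid 2, lactic acid 3; adjusted p 0.00538 to 0.079). A fit of the lactic acid and control groups alone kept none of the 3 calls (adjusted p = 0.211 for Pycr1, 0.21 for Vldlr and 0.237 for Slc6a9).

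Asns averaged 441 ± 42.0 TPM against 296 ± 73.1 TPM (SD, n = 3), and the lactic acid libraries were the highest of the 12. The difference was 0.61 ± 0.16 on the log2 scale (adjusted p = 0.0592), and 0.38 ± 0.0838 with control 1 left out (adjusted p = 0.0131). Atf5 was lower at −0.52 ± 0.15 without control 1 (adjusted p = 0.0449), and with 12 libraries it was −0.31 ± 0.19 (adjusted p = 0.34). Slc7a3 gave −0.83 ± 0.22 on the log2 scale (adjusted p = 0.0615), and −0.68 ± 0.20 with control 1 left out (adjusted p = 0.0448). Atf4 did not pass, at 0.023 ± 0.16 on the log2 scale (adjusted p = 0.944), and −0.17 ± 0.11 with control 1 left out (adjusted p = 0.286), nor did Ddit3 (0.072 ± 0.11 without control 1, adjusted p = 0.664). Library 3 was the lowest of its group for 32 of the 37 genes, and for 17 once mitochondrial mRNAs were removed and TPM rescaled. With those mRNAs removed and control 1 left out, 8 genes were higher and 2 lower, and Nupr1, Aldh18a1, Cth and Eprs were added to the 4 higher ones. With median-of-ratios scaling and control 1 left out, 7 were higher and 4 lower. No share of all genes is given for these settings.

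Under 15% CO2 no gene of the 37 passed with 12 libraries (limma; 0% against 1.35% of all genes tested, 1.28% higher and 0.0649% lower), and 4 had an unadjusted p under 0.05. Without control 1 there were 6, Pycr1 higher and Chac1, Sesn2, Slc7a5, Aars and Wars lower, or 16.2% against 7.38% of all genes tested (5.82% higher and 1.56% lower). Median-of-ratios scaling and quantile normalization each gave 1 gene with 12 libraries. The median difference was −0.0016 with 12 libraries and −0.26 without control 1, beside 0.010 and 0.033 for all genes tested. Without control 1 the 15% CO2 libraries were all above the controls for 4 genes and all below for 24 of 37, where 30.7% and 19.2% of all genes did so. With all 3 controls these counts were 3 and 2, against 15.2% and 6.42% of all genes, so the count of lower genes rests on leaving out control 1. Without control 1, median-of-ratios scaling gave 1 higher and 17 lower, and removing mitochondrial mRNAs 1 higher and 10 lower. Shares of all genes are not given for these settings, so these counts cannot be set beside them.

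Wars had the smallest adjusted p of these. It averaged 86.5 ± 4.0 TPM against 113 ± 8.86 TPM in controls (SD, n = 3), and its 3 libraries were below all 3 controls. The difference was −0.38 ± 0.0860 on the log2 scale (adjusted p = 0.0597), and −0.45 ± 0.0764 with control 1 left out (adjusted p = 0.00796). Aars was −0.13 ± 0.14 on the log2 scale (adjusted p = 0.66), and −0.34 ± 0.0678 with control 1 left out (adjusted p = 0.0145). Slc7a5 was −0.18 ± 0.19 on the log2 scale (adjusted p = 0.658), and −0.46 ± 0.0933 with control 1 left out (adjusted p = 0.0171), and its partner Slc3a2 gave −0.28 ± 0.0929 without control 1 (adjusted p = 0.0891). Chac1 was −0.16 ± 0.23 on the log2 scale (adjusted p = 0.737), and −0.50 ± 0.11 with control 1 left out (adjusted p = 0.0195), and Sesn2 was −0.18 ± 0.18 on the log2 scale (adjusted p = 0.646), and −0.42 ± 0.11 with control 1 left out (adjusted p = 0.0485). For these 4 genes the 15% CO2 libraries lay between control 1 and the other controls. Pycr1 averaged 19.0 ± 2.24 TPM and differed by 0.81 ± 0.21 on the log2 scale (adjusted p = 0.103), and 0.52 ± 0.13 with control 1 left out (adjusted p = 0.0361), above all 3 controls in every library. The stress effectors that rose in low-NaHCO3 medium did not pass here, with Ddit3 at −0.36 ± 0.11 (adjusted p = 0.0629), Nupr1 at −0.051 ± 0.14 (adjusted p = 0.855) and Ppp1r15a at −0.26 ± 0.0742 (adjusted p = 0.0556) without control 1.

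The treatments were also compared with each other, which uses no control value, although control 1 still enters the 12-library estimate of the spread. The comparisons with control share their control libraries, so similar differences among them are not separate evidence. Between 15% CO2 and lactic acid no gene of the 37 passed with 12 libraries (limma; 0.203% of all genes tested, 0.17% higher and 0.0325% lower under 15% CO2), with 10 at an unadjusted p under 0.05. A fit of those groups alone gave 2 and median-of-ratios scaling 1. With control 1 left out of the spread 11 passed, or 29.7% against 4.6% of all genes tested (2.96% higher and 1.64% lower). Of these, 10 were lower under 15% CO2 (Ddit3, Trib3, Chac1, Vldlr, Asns, Pycr1, Cth, Slc7a5, Aars and Eprs) and Atf5 was higher. The median difference was −0.25 beside 0.037 for all genes tested, and 34 of 37 were below 0. The 15% CO2 libraries were all below the lactic acid libraries for 21 genes and all above for 3, where 8.79% and 15.4% of all genes did so.

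Cth had the largest of these differences, at 41.5 ± 4.04 TPM under 15% CO2 and 83.2 ± 18.7 TPM with lactic acid (SD, n = 3), or −0.96 ± 0.16 without control 1 (adjusted p = 0.00946) and the same value with an adjusted p of 0.4 with 12 libraries. Trib3 was −0.70 ± 0.17 (adjusted p = 0.043), Chac1 −0.59 ± 0.0951 (adjusted p = 0.00856) and Pycr1 −0.58 ± 0.12 (adjusted p = 0.0204), all without control 1. Atf5 was higher under 15% CO2 by 0.67 ± 0.14 (adjusted p = 0.0214), and the 3 libraries of each group did not overlap.

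Low-NaHCO3 medium was also compared with each of the other treatments. Against 15% CO2, 15 of 37 genes passed with 12 libraries, 3 higher and 12 lower (40.5% against 51.3% of all genes tested, 17.5% higher and 33.7% lower), and 24 without control 1, 5 higher and 19 lower (64.9% against 69.3%, 23.8% higher and 45.5% lower). Against lactic acid, 21 passed, 2 higher and 19 lower (56.8% against 48.5%, 17.8% higher and 30.8% lower), and 33 without control 1, 3 higher and 30 lower (89.2% against 67.4%, 24.4% higher and 42.9% lower). The low-NaHCO3 libraries were all below the 15% CO2 libraries for 24 genes and all above for 5, where 47.4% and 25.4% of all genes were. Against lactic acid they were all below for 28 and all above for 3, where 43.9% and 26.5% of all genes were. Ddit3 and Ppp1r15a were higher in both comparisons and both fits. Ddit3 gave 1.09 ± 0.14 against 15% CO2 (adjusted p = 9.20e-05) and 0.65 ± 0.14 against lactic acid (adjusted p = 0.00288) with 12 libraries. Ppp1r15a gave 1.02 ± 0.11 (adjusted p = 2.21e-05) and 0.84 ± 0.11 (adjusted p = 9.86e-05). Nupr1 was higher than under 15% CO2 (0.92 ± 0.22, adjusted p = 0.00482). Against lactic acid it was 0.52 ± 0.22, which passed only without control 1 (adjusted p = 0.0706 with 12 libraries and 0.00393 without).

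Slc38a2 and Atf5 had the largest falls against 15% CO2 on the log2(TPM + 1) scale. With 12 libraries Slc38a2 gave −1.96 ± 0.0969 against 15% CO2 (adjusted p = 3.32e-07) and −1.77 ± 0.0969 against lactic acid (adjusted p = 8.28e-07). Atf5 gave −2.16 ± 0.19 (adjusted p = 6.80e-06) and −1.49 ± 0.19 (adjusted p = 9.43e-05). Slc1a5 gave −1.38 ± 0.24 (adjusted p = 0.000716) and −1.58 ± 0.24 (adjusted p = 0.000317). Synthesis enzymes were also lower than with lactic acid. Cth was −1.83 ± 0.33 (adjusted p = 0.000958), Psph −1.31 ± 0.26 (adjusted p = 0.0017), Aldh18a1 −1.25 ± 0.22 (adjusted p = 0.00094) and Asns −0.72 ± 0.16 (adjusted p = 0.00357). These 7 genes also passed in the same direction without control 1, in each comparison named, with the same differences since no control enters them. Pycr1 was above every control in low-NaHCO3 medium and under 15% CO2, although under 15% CO2 it passed only without control 1. In low-NaHCO3 medium against 15% CO2, Pycr1 gave −0.025 ± 0.21 and did not pass (adjusted p = 0.93). It was lower in low-NaHCO3 medium than with lactic acid, at −0.60 ± 0.21 (adjusted p = 0.0361), a call lost without 5 libraries taken singly (lactic acid 1, lactic acid 2, lactic acid 3, low-NaHCO3 medium 1, low-NaHCO3 medium 3; adjusted p 0.000803 to 0.112). Leaving out each library in turn kept 12 of the 15 calls against 15% CO2 (all but Cth, Ddit4 and Psph) and 16 of the 21 against lactic acid (all but Atf4, Ddit4, Pycr1, Sesn2 and Slc7a5).

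**Figure D4:**
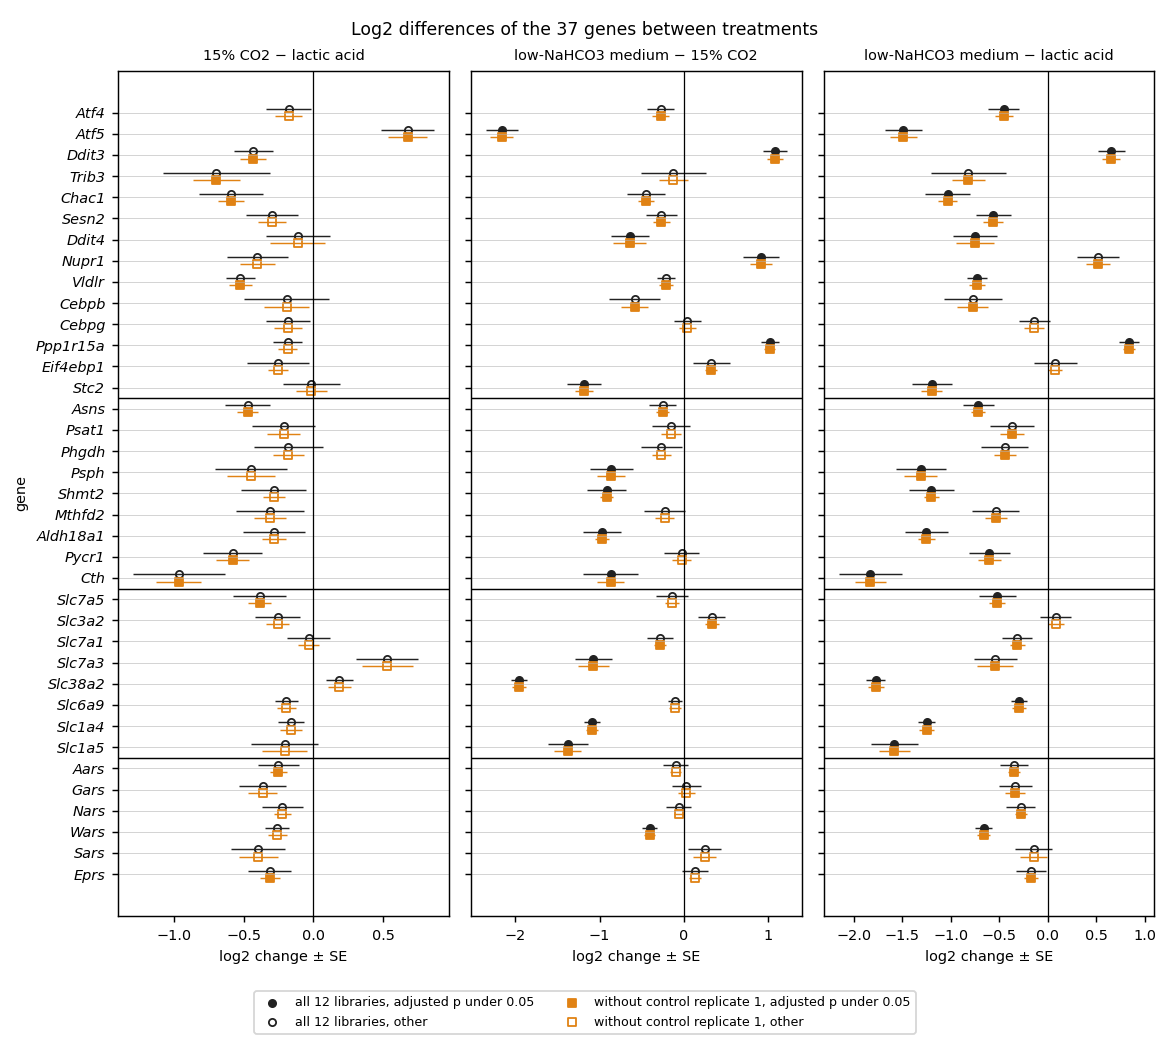
Log2 difference between pairs of treatments for each of the 37 genes, with 1 panel per pair, points for both fits and bars of 1 standard error. The points of the 2 fits coincide, since no control enters the difference, and the bars are shorter without control 1. In the panel of 15% CO2 against lactic acid 34 of 37 points lie below 0.

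Other genes of the pathway were taken from wider lists and compared in low-NaHCO3 medium against control, where 19.8% of all genes tested were higher and 35% lower with 12 libraries, and 22.7% and 40.9% without control 1. Of 17 tested genes for the eIF2 kinases, eIF2, its exchange factor and their regulators, 4 were higher and 4 lower, with a median of −0.034 beside −0.20 for all genes tested. These counts were 4 and 7 without control 1. Eif2ak2 (PKR), the kinase that senses viral RNA, was at 102 ± 17.1 against 40.0 ± 7.47 TPM (1.33 ± 0.15 on the log2 scale, adjusted p = 3.78e-05, and 1.18 ± 0.13 without control 1, adjusted p = 1.33e-05). Impact, an inhibitor of the amino acid sensor GCN2, was lower at −1.62 ± 0.52 with 12 libraries (adjusted p = 0.0213) and −0.78 ± 0.0909 without control 1 (adjusted p = 2.42e-05). Oma1, the mitochondrial protease that relays stress to eIF2, was at 16.1 ± 1.17 against 27.4 ± 5.42 TPM (−0.71 ± 0.17, adjusted p = 0.00539, and −0.86 ± 0.16 without control 1, adjusted p = 0.000744). Of 16 further ATF4 targets tested of 20 listed, 5 were higher and 4 lower, with a median of −0.046, and 5 and 5 without control 1. Slc7a11, the cystine importer xCT, was at 1.89 ± 0.436 against 16.4 ± 0.764 TPM (SD, n = 3), a difference of −2.60 ± 0.12 (adjusted p = 2.59e-07) and −2.61 ± 0.13 without control 1 (adjusted p = 6.57e-08). Jdp2, a leucine zipper factor, was at 23.6 ± 1.84 against 64.5 ± 3.16 TPM (−1.41 ± 0.11, adjusted p = 2.85e-06, and −1.45 ± 0.11 without control 1, adjusted p = 1.22e-06), and Gadd45a, a growth arrest gene, was higher at 138 ± 8.01 against 51.7 ± 16.1 TPM (1.45 ± 0.26, adjusted p = 0.00079, and 1.16 ± 0.21 without control 1, adjusted p = 0.000591).

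The wider lists of supply genes are given against the same shares, in which lower calls also outnumbered higher ones. Of 8 transporters tested of 17 listed, 1 was higher and 4 were lower, with a median of −0.55, and 2 and 4 without control 1. Slc36a4 gave −1.88 ± 0.35 with 12 libraries and −1.33 ± 0.11 without control 1, and the lysosomal carrier Slc36a1 −1.65 ± 0.26 and −1.28 ± 0.13 (adjusted p = 0.000334 and 8.17e-06). Of 16 genes of serine, proline and one-carbon metabolism tested of 18 listed, 1 was higher and 10 lower, with a median of −0.55, and 2 and 12 without control 1. Cbs, which makes cystathionine for Cth, was at 0.370 ± 0.169 against 3.39 ± 3.53 TPM and at 1.34 TPM in the controls without control 1. Of 14 further cytosolic synthetases, 2 were higher and 3 lower, with a median of −0.033, and 2 and 5 without control 1. Qars, for glutamine, was higher at 0.76 ± 0.13 (0.61 ± 0.0843 without control 1). Tars, for threonine, was lower at −0.48 ± 0.16 (−0.72 ± 0.0653 without control 1). Of 17 mitochondrial synthetases, 2 were higher and 9 lower, with a median of −0.52, and 2 and 10 without control 1. Rars2, for arginine, gave −0.91 ± 0.12 (−1.08 ± 0.0714 without control 1). With 12 libraries lactic acid gave 1 call among one-carbon genes, the mitochondrial folate enzyme Aldh1l2 at 182 ± 4.96 against 93.1 ± 36.8 TPM (1.05 ± 0.25, adjusted p = 0.0457, and 0.67 ± 0.11 without control 1, adjusted p = 0.00324), and 1 among the eIF2 genes, Eif2b1 at −0.48 ± 0.10 (adjusted p = 0.0338, and −0.53 ± 0.10 without control 1, adjusted p = 0.00865). Under 15% CO2 the 1 call with 12 libraries was Ass1, of arginine synthesis, at 276 ± 12.6 against 181 ± 26.8 TPM (0.62 ± 0.10, adjusted p = 0.0185, and 0.49 ± 0.0660 without control 1, adjusted p = 0.00294). With 12 libraries 3.99% of all genes tested passed with lactic acid and 1.35% under 15% CO2. These few calls are therefore not read as a result about the wider lists.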

How the data were processed

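Total RNA of C8-D1A cells was made into libraries with an NEBNext Ultra II kit, per the labels. The tools fastp 0.22.0 and HISAT2 2.1.0 and the build GRCm39 are named per the submitters' processing notes. How reads were counted, over which annotation and with which strand setting is not given in the sources used here. The authors deposited TPM, which sum to 1000000 in each library, so the depth is unknown and no counting error could be given. Symbols came from GENCODE M21 by Ensembl ID (21851 matched, 108 did not).

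Values were taken as log2(TPM + 1) for genes that reached 1 TPM in 3 or more libraries, and 1 model of group means was fitted to all genes with limma 3.58.1 under R 4.3.3, with eBayes using a trend. The 6 contrasts had two-sided tests, p-values were adjusted per contrast by Benjamini and Hochberg's method, and the threshold was 0.05. The script was tested on simulated data with means and spreads of the treated libraries, in which no library stood apart as control 1 does. The fit of 12 libraries and that without control 1 are given side by side. The 37 genes, the wider lists and the omission of control 1 were chosen with earlier results of these data known. Values in every library are given for Atf4 and for up to 6 genes a direction with the largest differences past the threshold, by the larger of the 2 fits, for each treatment, and up to 4 a direction for each pair of treatments. Descriptions of some replicates give CO3 or CO4 for CO2, and reagent numbers that rise by 1, which were read as copying errors.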

Additional observations from a re-analysis of the deposited data

How the results depend on the processing

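With all 12 libraries the number of the 37 genes past the threshold was 0 for 15% CO2 against control, 3 for lactic acid, 18 for low-NaHCO3 medium, 0 for 15% CO2 against lactic acid, 15 for low-NaHCO3 medium against 15% CO2 and 21 against lactic acid. Leaving out each library in turn gave 0 to 6, 2 to 6, 14 to 30, 0 to 11, 12 to 24 and 16 to 33, each highest without control 1 (6, 6, 30, 11, 24 and 33). Leaving out control 3 alone gave 1 gene for 15% CO2, and leaving out controls 1 and 3 gave 29 for low-NaHCO3 medium against control. With 12 libraries, median-of-ratios scaling gave 1, 5 and 1 for 15% CO2, lactic acid and 15% CO2 against lactic acid. Quantile normalization gave 1 for 15% CO2. Removing mitochondrial mRNAs gave 5 for lactic acid and 1 for 15% CO2 against lactic acid. Fitting only the groups compared gave 0 for lactic acid, 2 for 15% CO2 against lactic acid and 25 for low-NaHCO3 medium against 15% CO2. Apart from control 1 left out alone, counts under changed settings, here and below, stand without the share of all genes tested.

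With control 1 left out, a second change gave, for 15% CO2, lactic acid and low-NaHCO3 medium against control, 18, 11 and 31 with median-of-ratios scaling, 5, 5 and 29 with log2(TPM + 0.1), 10, 10 and 31 with quantile normalization, and 11, 10 and 31 without mitochondrial mRNAs. Fitting only the groups compared then gave 12 for 15% CO2 and 29 for low-NaHCO3 medium. Apart from median-of-ratios scaling and log2(TPM + 0.1), these combinations, that of control 1 left out with a replicate block, and the removal of mitochondrial mRNAs were chosen after seeing the data. The replicate number as a block gave 0, 3, 17, 0, 15 and 20 genes with 12 libraries, and 9, 7 and 30 against control with control 1 left out. Deviations of same-numbered libraries correlated between −0.14 and 0.46 and not above 0.1 in every pair. The highest were 0.31 and 0.46, for replicates 2 and 3 of 15% CO2 and lactic acid. Whether some same-numbered libraries share a batch was not tested.

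Leaving out control 1 turned the sign, from above to below control, for 2 of the 37 genes in low-NaHCO3 medium, 12 under 15% CO2 and 13 with lactic acid, none of which had a call with 12 libraries. In low-NaHCO3 medium against control, median-of-ratios scaling gave 0.029 for Trib3, 0.085 for Asns, 0.11 for Mthfd2, 0.13 for Gars and 0.13 for Nars on the log2 scale. Without control 2 these were 0.13, 0.017, 0.11, 0.053 and 0.045, and without control 3 Trib3 gave 0.11, Mthfd2 0.058, Gars 0.029 and Nars 0.022. Median-of-ratios scaling also gave 0.017 for Vldlr against 15% CO2 and 0.011 for Eprs against lactic acid, and Chac1 under 15% CO2 gave 0.011 without control 3. With single libraries left out, the lowest values of these 6 genes were all without control 1, at −0.73 for Trib3, −0.34 for Asns, −0.44 for Mthfd2, −0.28 for Gars, −0.28 for Nars and −0.50 for Chac1. The causes were not tested. The depth of the libraries is unknown, which leaves the precision of low genes such as Slc7a3 unstated.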
